A study of Homo sapiens with 2 samples.

Results

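The genes described here are the PPAR receptors (PPARG, PPARA, PPARD), their partner RXRA, the coactivator PPARGC1A, and genes of fatty acid handling and lipid droplets (FABP1, ACSL3, ANGPTL4, PLIN2, PLIN3), followed in Huh7 cells with USP22 depleted. They were chosen by symbol, as the 10 named genes, and 9 of them had a row among the 11976 genes listed in both tables. PPARGC1A had no row and was not analysed here. Huh7 is an established human hepatocellular carcinoma line. RNA was profiled in 1 library of Huh7 cells given an shRNA against USP22, which removes ubiquitin from histones as part of the SAGA complex, and in 1 library of Huh7 cells given a control shRNA. The labels give neither the shRNA sequences nor the time after the shRNA was given. With 1 library per group there is no replicate, so no p-value or error is given, and "higher" and "lower" compare 1 library with 1 other.

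PPARs are nuclear receptors that bind fatty acids and their derivatives, pair with a retinoid X receptor such as RXRA, and sit on DNA elements made of a pair of AGGTCA half-sites. In liver, PPARA is the main receptor of fatty acid oxidation and fasting, whereas PPARG is best known from fat cells, where it drives lipid storage, and is induced in fatty liver. Droplets store triglyceride under a coat of perilipins, which govern access of lipases to the stored lipid.

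Values are given in FPKM (fragments per kilobase of transcript scaled to the mapped fragments of a library), a unit that accounts for transcript length, so levels of different genes can be set side by side. The values sum to 218955 FPKM over the listed genes in the USP22 shRNA library and to 244301 FPKM in the control. Since the read depth is not known, counting error cannot be estimated. The knocked-down gene USP22 (ENSG00000124422.11_2) measured 7.67 FPKM in the USP22 shRNA library and 58.1 FPKM in the control, 7.57-fold lower. In keeping with the labelled liver origin, all 13 hepatocyte and Huh7 markers were listed above 1 FPKM in both libraries. These markers also differed between the libraries. By the 2-fold rule given below 7 of 13 were lower with USP22 shRNA and none higher. Among all genes under that rule 12.2% were lower and 24.1% higher. With the trend in GC content described below removed, 6 markers were lower and none higher, against 8.92% and 8.45% of all genes. The markers sum to 2157 FPKM with USP22 shRNA and 3381 FPKM in the control. Of 10 adipocyte markers 4 were listed, summing to 12.8 FPKM with USP22 shRNA and 17.5 FPKM in the control, and ADIPOQ, LEP, FABP4 and PLIN1 had no row. Of 10 blood cell markers 3 were listed, LYZ, CD14 and CD68, with LYZ at 93.6 FPKM with USP22 shRNA and 386 FPKM in the control. Of 11 endothelial and stromal markers 5 were listed, summing to 24.7 FPKM with USP22 shRNA and 14.8 FPKM in the control, with ACTA2 at 0 in both. The part of these shifts in the results below was not tested.

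Differences are given as log2 ratios of USP22 shRNA to control, after adding 1 FPKM to each value, so that the ratio of a gene at low FPKM is understated. The plain fold is given beside it where it helps. Genes past 2-fold on that scale were called higher or lower, among the 10195 that averaged 1 FPKM or more over both libraries. This filter kept 8 of the 9 listed genes and left out PPARA. By this rule of size 2 of the 8, ACSL3 and ANGPTL4, were higher with USP22 shRNA and 2, FABP1 and RXRA, were lower. Among all 10195 genes 24.1% were called higher and 12.2% lower, together 36.3%, so 4 of 8 in either direction is near what the tables hold in general. The median log2 ratio was -0.32 over the 8 genes and 0.10 over all genes.

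The log2 ratio followed the GC content of the transcript across genes, falling as GC content rose (Spearman rho -0.70, n = 10134 genes, which share their libraries and are not replicates). Of 10 equal bins of genes by GC content, the lowest had 70.2% of its genes at least 2-fold higher with USP22 shRNA, and the highest had 34.8% at least 2-fold lower. The ratio of each of the 8 described genes is therefore also given with this trend removed, which leaves its distance from genes of like GC content. Markers and genes of the wider lists have this value only where it is stated. Their other values are as deposited and still carry the trend. After removal 8.45% of genes were called higher and 8.92% lower, together 17.4%. Of the 8 described genes 1 was then higher, ANGPTL4, and 1 lower, FABP1, with a median of -0.08, against 0.0025 over all genes.

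**Figure D1:**
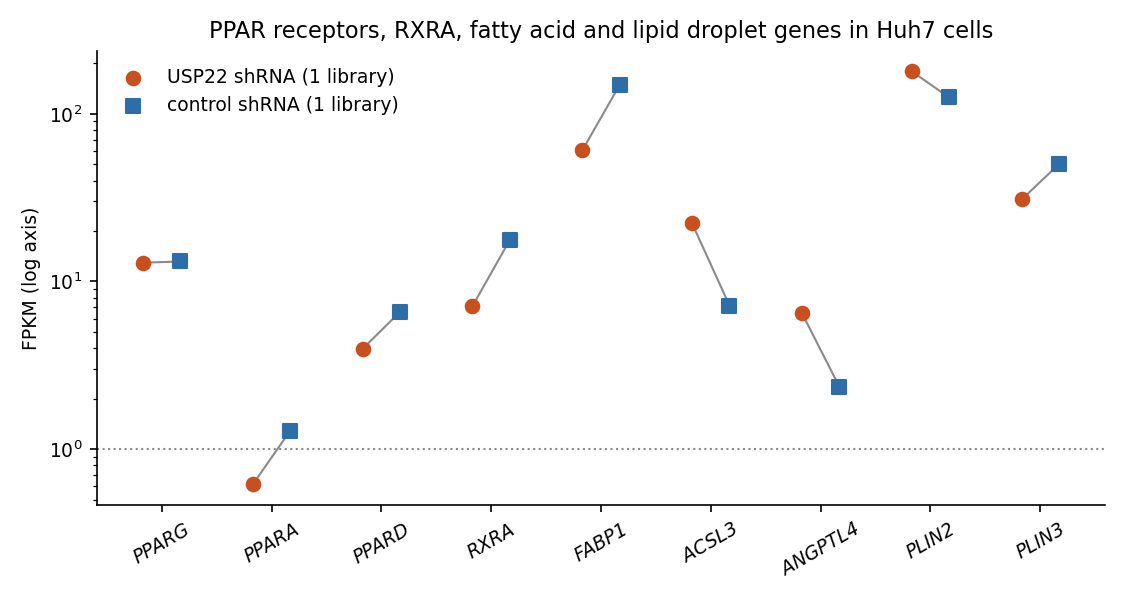
Level of each of the 9 listed genes, in FPKM on a log axis, in the USP22 shRNA library (circles) and the control library (squares), with 1 library per group and a line joining the values of a gene. The dotted line marks 1 FPKM, which PPARA crosses, with 0.616 FPKM in the USP22 shRNA library and 1.29 FPKM in the control.

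Among the receptors, PPARG (ENSG00000132170.19_3) had nearly the same level in both libraries, at 12.9 FPKM with USP22 shRNA and 13.2 FPKM in the control. Its log2 ratio was -0.02, and its sign depends on the scaling. It was -0.19 with TMM scaling. It was 0.11 when the USP22 shRNA library was rescaled to the control's sum, both sums taken without mitochondrially encoded genes. The transcript is rather poor in GC, at 44.0%, and genes in the same GC bin had a median log2 ratio of 0.58. Removal of the trend put PPARG at -0.78, at percentile 14.1 of all genes, inside the 2-fold rule. The tables hold 1 value per gene, so the PPARG isoforms that start at different promoters were not separated.

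PPARD (ENSG00000112033.13_2), the widely expressed receptor of the family, was at 3.97 FPKM with USP22 shRNA and 6.59 FPKM in the control, a log2 ratio of -0.61. That difference is close to the trend at its GC content of 59.0%, and with the trend removed the ratio was -0.04. PPARA (ENSG00000186951.16_3), the receptor of hepatic fatty acid oxidation, was the lowest of the 9 genes in both libraries, at 0.616 FPKM with USP22 shRNA and 1.29 FPKM in the control. It was 2.09-fold lower as a plain ratio, but its log2 ratio was -0.50 at so low a level. With no filter on low values and the GC trend removed, an alternative chosen after the data were seen, the PPARA ratio was -0.73.

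PPARG was thus the highest of the 3 receptor transcripts per length in both libraries, at 73.8% of their summed FPKM with USP22 shRNA and 62.5% in the control. The sum of the 3 was 17.5 FPKM with USP22 shRNA and 21.0 FPKM in the control. PPARG exceeded PPARD by 3.26-fold in the USP22 shRNA library and by 2.0-fold in the control, and it exceeded PPARA by 21.0-fold in the USP22 shRNA library and by 10.2-fold in the control. Such a ratio of 2 genes within a library does not depend on how that library was scaled, though it still carries any difference in their GC content. With the GC trend removed PPARG was at -0.78 and PPARD at -0.04, so the shift toward PPARG over PPARD was not kept. With no filter on low values and that trend removed PPARG was at -0.70 and PPARA at -0.73. The PPARG share of the 3 receptors carries the same differences in GC content.

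RXRA (ENSG00000186350.9_2), which forms the heterodimer with each PPAR, was lower, at 7.14 FPKM with USP22 shRNA and 17.7 FPKM in the control, or 2.48-fold. Its log2 ratio was -1.20 as deposited, -0.90 at a pseudocount of 5 and -0.53 once the GC trend was removed, so its place among the lower genes rests on the processing. RXRA has a GC content of 63.2%, in the GC bin where the median log2 ratio was -0.71. The related partner RXRB differed little, at 12.8 FPKM with USP22 shRNA and 11.95 FPKM in the control, and RXRG had no row. RXRB was named after its values were seen. The order of these partners was reversed between the libraries, with RXRA at 0.556 times RXRB in the USP22 shRNA library and 1.48 times RXRB in the control. PPARG stood at 1.81 times RXRA with USP22 shRNA and 0.745 times RXRA in the control. These 2 transcripts differ in GC content, at 44.0% and 63.2%. With the GC trend removed PPARG was at -0.78 and RXRA at -0.53, so this shift toward PPARG was not kept.

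The other partners and coregulators of these receptors held 7 genes called higher and 1 called lower as deposited. Of 23 listed by general knowledge 21 had a row and 20 passed the filter, with a median log2 ratio of 0.61, where all genes had 24.1% higher, 12.2% lower and a median of 0.10. The median GC content of these 20 was 47.7%. Of the 21 listed, 20 were at 1 FPKM or more with USP22 shRNA and 17 in the control, so 3 of the higher genes, NRIP1, TBL1XR1 and SIRT1, passed the filter through the USP22 shRNA library alone and the count does not weigh the directions evenly. The deacetylase SIRT1 was named after its values were seen, at 5.72 FPKM with USP22 shRNA and 0.847 FPKM in the control. The corepressor NRIP1 was at 7.84 FPKM with USP22 shRNA and 0.774 FPKM in the control, and the p160 coactivator NCOA2 at 8.68 FPKM with USP22 shRNA and 1.35 FPKM in the control. TBL1XR1, a corepressor exchange factor, was at 6.49 FPKM with USP22 shRNA and 0.865 FPKM in the control. At the other end, HDAC3, the deacetylase of the corepressor complex, was at 10.7 FPKM with USP22 shRNA and 21.3 FPKM in the control, and its partner TBL1X at 5.48 FPKM with USP22 shRNA and 10.8 FPKM in the control. Neither was called lower as deposited, with log2 ratios of -0.93 for HDAC3 and -0.87 for TBL1X. Coactivators and corepressors were thus both among the higher genes. With the GC trend removed 3 were higher (NRIP1 at 1.04, NCOA2 at 1.19 and MED1 at 1.35), TBL1X was lower at -1.12, and the median was 0.23. All genes then had 8.45% higher and 8.92% lower. MED1, the Mediator subunit that contacts nuclear receptors, was named after its values were seen. With a mean of at least 5 FPKM 11 genes were left and the median was -0.24.

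**Figure D2:**
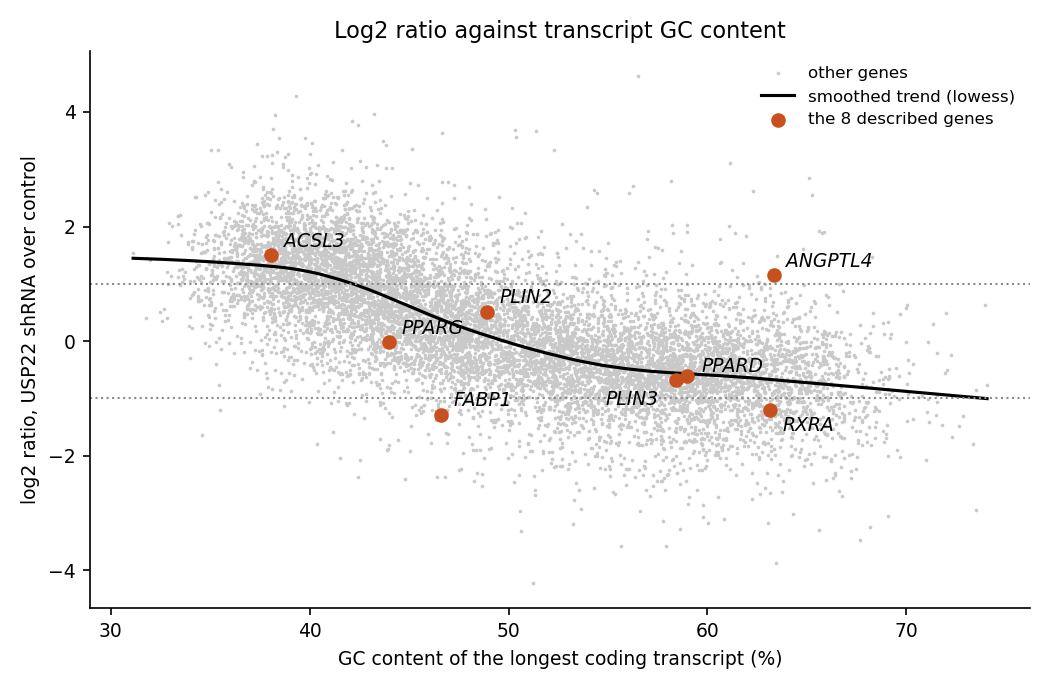
Log2 ratio, USP22 shRNA over control, against the GC content of the longest coding transcript in percent, for 10134 genes (grey points), with the smoothed trend (line) and the 8 described genes that passed the filter (filled circles). Dotted lines mark 2-fold in each direction. ANGPTL4 lies above the trend at 1.15, FABP1 below it at -1.28, and ACSL3, PPARD and PLIN3 lie close to it.

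FABP1 (ENSG00000163586.9_2), the liver fatty acid binding protein that carries fatty acids through the cytosol, was at 60.5 FPKM with USP22 shRNA and 149 FPKM in the control, 2.46-fold lower. It ranked 590 of 11976 genes by level with USP22 shRNA and 220 in the control. Its log2 ratio of -1.28 was the lowest of the 8 genes, and it was below -1 under each of the 7 alternatives in pseudocount, scaling or trend, from -1.66 to -1.14. At its GC content of 46.6% neighbouring genes were on balance higher, with a median of 0.19. Removal of the trend therefore put FABP1 further down, at -1.66 and percentile 2.05. FABP1 is itself a product of hepatocytes, and the hepatocyte markers were lower in part. Of these 7 of 13 were at least 2-fold lower, against 12.2% of all genes. With the GC trend removed 6 of 13 were lower, against 8.92% of all genes. None of the 13 was at 0, and their log2 ratios as deposited ran from -2.93 to 0.95. AHSG had the lowest ratio, at 69.3 FPKM with USP22 shRNA and 535 FPKM in the control. APOB was at 100.04 FPKM with USP22 shRNA and 51.4 FPKM in the control, FGB at 208 FPKM with USP22 shRNA and 110 FPKM in the control, and AFP at 347 FPKM with USP22 shRNA and 270.1 FPKM in the control. With the GC trend removed the log2 ratio was 0.12 for APOB, -0.17 for FGB and -0.92 for AFP. The part of the markers in the FABP1 result was not tested. In RNA from bulk cultures fewer cells with a transcript and less of it per cell cannot be told apart.

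ANGPTL4 (ENSG00000167772.11_3), a secreted inhibitor of lipoprotein lipase and a well known PPAR target, was at 6.47 FPKM with USP22 shRNA and 2.36 FPKM in the control, 2.74-fold higher. Its log2 ratio was 1.15, against a median of -0.71 for genes in the same GC bin (GC content of 63.3%), of which 1.28% were at least 2-fold higher. Removal of the trend put it at 1.83, at percentile 98.8 of all genes. The level is low, so the pseudocount matters, with 1.42 at a pseudocount of 0.1 and 0.64 at 5, and with TMM scaling it was just short of 2-fold at 0.9987. Exons of ANGPTL4 overlap those of RAB11B-AS1 on the opposite strand, and the sources used here do not say whether strand was used in counting.

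FABP1 and ANGPTL4 were the pair past 2-fold both with and without the GC trend, in opposite directions, and their promoter windows are shown for that reason. The windows run from 250 bases before the gene's start to 50 after it, in RefSeq's GRCh38.p14, 5′ to 3′ on the gene's strand. That build differs from the GRCh37 in the submitters' processing notes, and the deposited tables carry no coordinates. Capitals mark TATAAA and, in FABP1, the letters that match the DR1 element (a pair of half-sites 1 base apart, the layout PPAR and RXR heterodimers bind), searched as AGGTCANAGGTCA on both strands with at most 2 mismatches over 12 letters. FABP1 lies at chr2:88128013-88128312, minus strand, and ANGPTL4 at chr19:8363905-8364204, plus strand.
FABP1: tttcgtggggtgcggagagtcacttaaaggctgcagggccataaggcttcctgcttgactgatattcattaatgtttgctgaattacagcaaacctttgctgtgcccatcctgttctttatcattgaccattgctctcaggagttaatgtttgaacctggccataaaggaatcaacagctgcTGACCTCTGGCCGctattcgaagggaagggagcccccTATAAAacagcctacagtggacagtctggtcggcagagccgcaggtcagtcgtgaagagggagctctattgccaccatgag
ANGPTL4: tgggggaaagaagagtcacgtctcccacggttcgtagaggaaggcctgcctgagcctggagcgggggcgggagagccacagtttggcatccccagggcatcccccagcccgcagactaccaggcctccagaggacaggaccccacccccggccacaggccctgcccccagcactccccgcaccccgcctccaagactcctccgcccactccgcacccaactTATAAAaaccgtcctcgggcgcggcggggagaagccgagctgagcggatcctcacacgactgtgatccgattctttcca

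The DR1-like letters of FABP1 lie 68 to 56 bases before the start, on the other strand, with 2 mismatches, and do not overlap TATAAA, which lies 31 to 26 bases before it. In ANGPTL4 TATAAA lies 29 to 24 bases before the start. Of 35116 RefSeq windows of the same length, 2.97% held DR1 letters with at most 2 mismatches and 11.5% held TATAAA on either strand. Over the 10 named genes there were 18 windows, of which 1 (FABP1) held the DR1 letters and 5 held TATAAA. Windows of a gene can overlap, as do those of PPARG at chr3:12288810-12289109 and chr3:12288820-12289119, both with TATAAA. The count of 5 is therefore not of separate promoters. The ANGPTL4 window has a GC content of 66.3% and the FABP1 window 50%. A match describes letters only, and the PPAR element known for a gene may lie outside such a window.

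ACSL3 (ENSG00000123983.13_2), an acyl-CoA synthetase that activates fatty acids at the endoplasmic reticulum and on growing droplets, was at 22.2 FPKM with USP22 shRNA and 7.19 FPKM in the control, 3.09-fold higher. Its log2 ratio of 1.5 was the highest of the 8 genes as deposited. ACSL3 has a GC content of 38.1%, where the trend itself reaches 1.31, and with the trend removed the ratio was 0.20, at percentile 61.3. Its exons overlap those of AC013476.1 on the opposite strand. Against other synthetases in the same library, ACSL3 stood at 3.11 times ACSL1 with USP22 shRNA and 1.19 times ACSL1 in the control. It stood at 1.09 times ACSL4, whose transcript is as low in GC content at 37.4%, with USP22 shRNA and 0.646 times ACSL4 in the control. ACSL1 was named after its values were seen.

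Few genes of the wider list of fatty acid uptake, binding and activation were called. Of 27 genes 13 had a row and 12 passed the filter, with 1 higher, none lower and a median of 0.12, where 24.1% of all genes were higher and 12.2% lower. ACSL4 was at 20.3 FPKM with USP22 shRNA and 11.1 FPKM in the control, and FABP3, the heart-type binding protein, at 9.90 FPKM with USP22 shRNA and 5.95 FPKM in the control. Endothelial lipase, LIPG, was at 0.615 FPKM with USP22 shRNA and 1.61 FPKM in the control. The transporter SLC27A4 was at 10.4 FPKM with USP22 shRNA and 17.3 FPKM in the control, and LMF1, a lipase maturation factor, at 1.12 FPKM with USP22 shRNA and 2.34 FPKM in the control. After removal of the trend none was higher, LIPG was lower at -1.41, and the median was 0.0086, where 8.45% of all genes were higher and 8.92% lower. LIPG passed the filter through the control library alone, where it is the higher, so this call does not weigh the directions evenly. The order of the binding proteins was reversed, with FABP1 at 0.828 times FABP5 in the USP22 shRNA library and 2.78 times FABP5 in the control. FABP5, another binding protein of the family, was named after its values were seen. CD36, LPL, FABP4, ACSL6 and GPIHBP1 were among the 14 with no row.

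**Figure D3:**
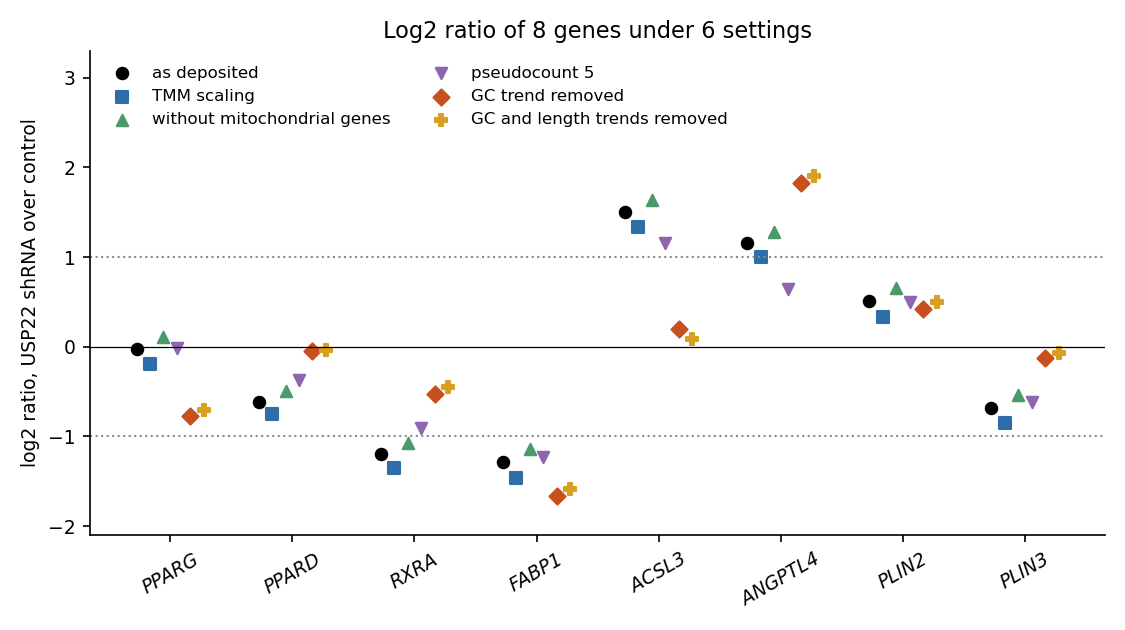
Log2 ratio, USP22 shRNA over control, of the 8 genes that passed the filter, as deposited (black circles) and under 5 alternatives in scaling, pseudocount or trend. Dotted lines mark 2-fold in each direction. FABP1 lies below -1 and PLIN2 between 0.33 and 0.66 under all the settings drawn, while ACSL3 and RXRA come inside 2-fold with the GC trend removed.

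PLIN2 (ENSG00000147872.9_3), the main perilipin on hepatocyte droplets and a PPAR target, was the most abundant of the 9 genes with USP22 shRNA and second to FABP1 in the control. It was at 179 FPKM with USP22 shRNA and 125 FPKM in the control, 1.43-fold higher. It ranked 120 of 11976 genes by level with USP22 shRNA and 269 in the control. Its log2 ratio of 0.51 lay inside the 2-fold rule, was 0.42 with the GC trend removed, and was positive under each of the 7 alternatives in pseudocount, scaling or trend. PLIN3 (ENSG00000105355.8_3), a perilipin that moves between the cytosol and new droplets, was at 30.8 FPKM with USP22 shRNA and 50.1 FPKM in the control. Its log2 ratio was -0.68, at a GC content of 58.4%, and -0.12 after removal of the trend, and its exons overlap those of AC027319.1 on the opposite strand. PLIN2 therefore stood at 5.81 times PLIN3 with USP22 shRNA and 2.498 times PLIN3 in the control. The coat transcripts summed to 210 FPKM with USP22 shRNA and 175 FPKM in the control. PLIN2 also changed place with FABP1, which stood at 0.338 times PLIN2 with USP22 shRNA and 1.19 times PLIN2 in the control.

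The wider set of lipid droplet genes was called about as often as genes in general. Of 41 genes 36 had a row and 31 passed the filter, with 9 higher, 5 lower and a median of -0.07, where all genes had 24.1% higher, 12.2% lower and a median of 0.10. Of the 36 listed, 30 were at 1 FPKM or more with USP22 shRNA and 27 in the control, so some of the higher genes, VPS13C among them, passed the filter through the USP22 shRNA library alone. Higher were LPIN2, at 36.4 FPKM with USP22 shRNA and 7.57 FPKM in the control, and LPIN1, at 5.67 FPKM with USP22 shRNA and 1.08 FPKM in the control, phosphatidate phosphatases that make diacylglycerol. The lipid transfer protein VPS13C was at 3.34 FPKM with USP22 shRNA and 0.184 FPKM in the control. Lower were the monoglyceride lipase MGLL, at 7.48 FPKM with USP22 shRNA and 41.4 FPKM in the control, and DGAT1, which makes triglyceride, at 6.44 FPKM with USP22 shRNA and 17.7 FPKM in the control. AGPAT2, which makes phosphatidate, was at 10.7 FPKM with USP22 shRNA and 33.8 FPKM in the control. METTL7B and the cholesterol esterifying enzyme SOAT2 were lower as well, both named after their values were seen. After removal of the trend LPIN2 (2.02) and LPIN1 (1.41) were higher, MGLL (-1.78) was lower, and the median was 0.07. Of all genes 8.45% were then higher and 8.92% lower, so these droplet genes were called no more often than genes in general. Of the other perilipins PLIN1 had no row and PLIN4 and PLIN5 were under the filter, named after their values were seen. PLIN4 was at 0.138 FPKM with USP22 shRNA and 0.418 FPKM in the control, and PLIN5 at 0.180 FPKM with USP22 shRNA and 0.557 FPKM in the control.

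Target genes of PPARA in hepatocytes, mostly of fatty acid oxidation, were called no more often than genes in general. Of 33 genes 29 had a row and 27 passed the filter, with 4 higher, 3 lower and a median of 0.16, against 24.1% higher, 12.2% lower and a median of 0.10 over all genes. The medium-chain dehydrogenase ACADM was at 9.87 FPKM with USP22 shRNA and 2.35 FPKM in the control. The peroxisomal enzyme EHHADH was at 5.67 FPKM with USP22 shRNA and 1.37 FPKM in the control, and the transcription factor KLF10 at 12.1 FPKM with USP22 shRNA and 4.79 FPKM in the control. ETFDH was the remaining higher gene, named after its values were seen. Among the lower genes, ECI1 was at 10.6 FPKM with USP22 shRNA and 24.2 FPKM in the control, and the very long-chain dehydrogenase ACADVL at 14.04 FPKM with USP22 shRNA and 29.6 FPKM in the control. After removal of the trend CREB3L3 was the gene called higher, at 1.39, TXNIP was 1 of 2 called lower, at -1.57, and the median was -0.21. The shares over all genes were then 8.45% higher and 8.92% lower. CREB3L3 and TXNIP were named after their values were seen.

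**Figure D4:**
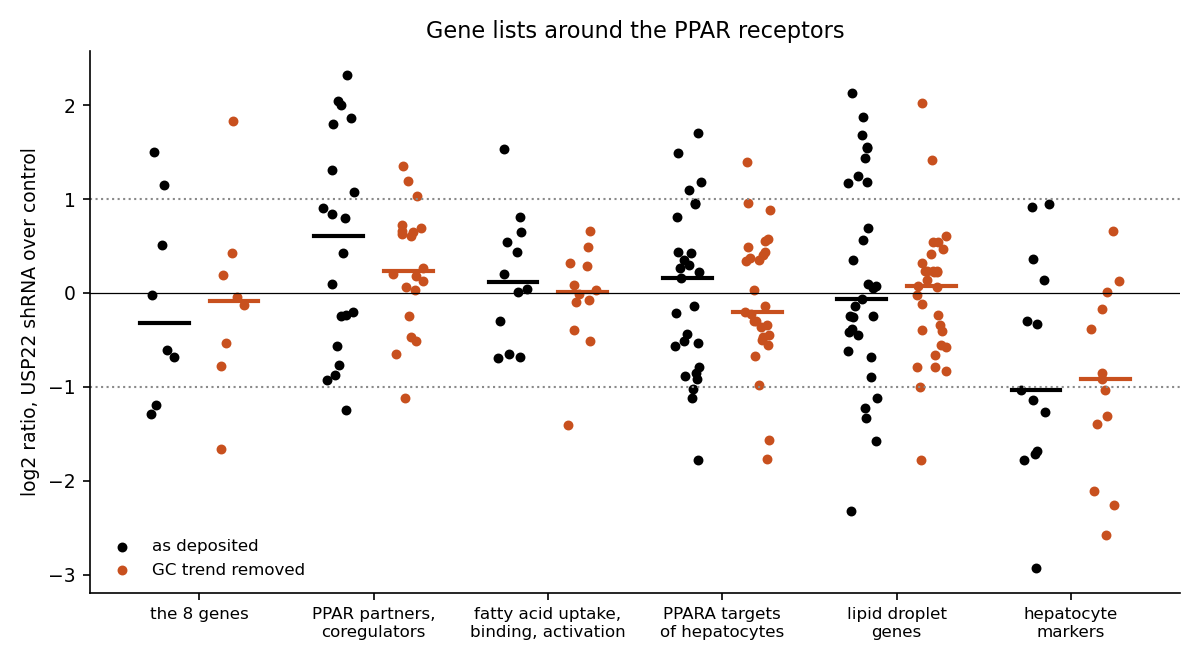
Log2 ratio, USP22 shRNA over control, of the genes past the filter in each list, as deposited (black) and after removal of the GC trend (orange), with a bar at each median and a point per gene. Dotted lines mark 2-fold in each direction. The partner and coregulator list has a median of 0.61 as deposited and 0.23 with the trend removed, and the hepatocyte markers have -1.03 and -0.92.

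In order of level, the USP22 shRNA library ran PLIN2, FABP1, PLIN3, ACSL3, PPARG, RXRA, ANGPTL4, PPARD and PPARA. The control ran FABP1, PLIN2, PLIN3, RXRA, PPARG, ACSL3, PPARD, ANGPTL4 and PPARA. Without replicates it cannot be said which neighbours in these orders differ beyond their spread, and RXRA and ANGPTL4 with USP22 shRNA, or ACSL3 and PPARD in the control, lay within 1 FPKM of each other.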

How the data were processed

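RNA-seq of 1 USP22 shRNA and 1 control shRNA library of Huh7 cells was compared, grouped by the labels. Per the labels' protocols, total RNA was extracted with TRIZOL and libraries were made with an mRNA kit. GRCh37, StringTie 1.3.0 and HISAT2 2.0.4 appear in the submitters' processing notes, with no role given, and the annotation used was not stated. The deposited tables name no unit. Their values were read as FPKM made by the authors, since they are not whole and their sums are far below the constant total that TPM would approach over most expressed genes. This reading is an assumption, and the pseudocount and filter depend on it. No source used here says how the 11976 genes were selected. Low values (below 0.5 FPKM) times transcript length showed no clear step of whole reads, with a best strength of 0.109 in the USP22 shRNA library and 0.0796 in the control, where whole reads would give 1. Depth is therefore unknown and no count model was used.

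The log2 ratio, with a pseudocount of 1, the filter at a mean of 1 FPKM and the 2-fold rule were applied to all genes with Python 3.11.15, pandas 2.3.3 and numpy 2.4.6. GC content and length are of the longest protein-coding transcript in GENCODE 29, matched on unversioned Ensembl identifiers, and 11836 genes (98.8%) had a value. That release is on GRCh38, not the GRCh37 of the processing notes. Its coordinates are used only for the exon overlaps given above. The GC trend was removed with lowess (statsmodels 0.14.6, span of 30%), followed in one alternative by the trend with length. The other alternatives were a 1.5-fold rule, restriction to protein-coding genes, a filter at 5 FPKM or none, pseudocounts of 0.1 and 5, centring on the median, unweighted TMM (trimming 30% of ratios and 5% of levels from both ends), and equal library sums without mitochondrial genes. TMM scaling, median centring and removal of the GC trend were run on simulated data with a constant shift or a linear GC trend put in. This checks the code only, since the simulated trend was of a kind these steps remove. Rescaling without mitochondrial genes and removal of the length trend were not run on it. Named genes are the 10 chosen genes, USP22 and the 3 highest and 3 lowest log2 ratios of each wider list, and markers and other exceptions are given in the text. Some genes that this rule names are not reported here. Where a symbol had 2 rows (7 symbols), the more abundant row was used. The genes, lists and alternatives were chosen with earlier results of these data known.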

Additional observations from a re-analysis of the deposited data

How the results depend on the processing

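With 1 library per group no replicate could be left out and no spread was available, so a ratio was taken as moved beyond 0.58 (log2 of 1.5) and a count beyond 1.5 times. No paired analysis was possible because each group has 1 library. No called ratio of a described gene changed sign under the alternatives. As deposited 2454 of all 10195 genes were higher and 1247 lower. With the GC trend removed 1 described gene was higher and 1 lower, 3 coregulators were higher, and 0 uptake genes were higher and 1 lower. Also 1 PPARA target was higher, 2 droplet genes were higher and 1 lower, and 856 of 10134 genes were higher. With GC and length trends removed these counts were 1 and 1, 2, 0 and 1, 2, 2 and 2, and 828. A pseudocount of 5 left 1 described gene higher and 1 lower, 3 coregulators higher and 0 lower, 1 PPARA target higher and 0 lower, 3 droplet genes higher and 2 lower, and 888 of all genes higher and 534 lower. A pseudocount of 0.1 gave 1 lower uptake gene and 5 lower PPARA targets, with 3014 of all genes higher and 1579 lower. Median centring gave 2 lower coregulators, with 1474 of all genes lower. TMM scaling, a shift of 0.18, gave 1 higher described gene, 3 lower coregulators and 6 lower PPARA targets. Under TMM scaling 2057 of all genes were higher and 1586 lower. Rescaling without mitochondrial genes gave 1 lower PPARA target, with 1025 of all genes lower. A mean of at least 5 FPKM, which tests fewer genes, left 1 described gene higher. It left 2 coregulators higher and 0 lower, at a median of -0.24. Also higher were 2 PPARA targets, 4 droplet genes and 1184 of the 5871 genes tested. The 1.5-fold rule gave 4 lower described genes, 4 lower coregulators, and 3 higher and 3 lower uptake genes. It also gave 7 higher and 7 lower PPARA targets and 8 lower droplet genes, with 3630 of all genes higher and 2464 lower. The other 132 counts and medians kept within these limits. They include the all-gene counts printed above for a pseudocount of 0.1, median centring, TMM scaling and rescaling without mitochondrial genes. The count of all genes higher by the 1.5-fold rule is also among them. The limit of 0.58 is larger than most of the list medians, so a median could change sign within it. With the GC trend removed that of the PPARA targets went from 0.16 to -0.21. With GC and length trends removed that of the coregulators went from 0.61 to 0.20. Of single ratios 13 moved, those of PPARG, RXRA, ACSL3, ANGPTL4 and PLIN3, each on removal of a GC trend. Except for alternatives that change the rule or filter by construction, the cause was not tested. The read depth is unknown, so counting error is not estimated for any gene.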
